A study of Arabidopsis thaliana with 10 samples.

Results

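Light-harvesting complex proteins bind chlorophyll and pass the energy of absorbed light to a photosystem. The LHCA proteins form the antenna of photosystem I and the LHCB proteins that of photosystem II. Each photosystem is built around reaction centre proteins made in the plastid, to which smaller subunits made from nuclear genes are added, named PSA in photosystem I and PSB in photosystem II. In seedlings kept in the dark the plastids are etioplasts, which hold no assembled photosystems, and the genes of this set are known to be raised by light. Gibberellins and brassinosteroids are growth hormones that are known to hold light-type development back in the dark.

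The genes described here are 44 nuclear genes, listed by locus identifier from the names of their families, a rule that uses no measured value although it was set with earlier results of these data known. All 44 were found among the 33518 genes of each deposited table, and all 44 have an entry in RefSeq's TAIR10.1 gene table. They comprise 6 LHCA, 15 LHCB, 12 PSA and 11 PSB genes. Of these, 18 belong to photosystem I and 26 to photosystem II. They were measured by RNA sequencing in 10 libraries of Arabidopsis thaliana, in 5 groups of 2.

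Paclobutrazol (PAC, 1 µM), which inhibits gibberellin synthesis, was in the medium of all groups during 4.5 days of dark growth, and the labels give the tissue as hypocotyl, the seedling stem. Wild-type Col-0 received mock (called wild-type PAC below) or 10 µM GA3, an active gibberellin, for 12 hours. The same pair of treatments was given to Col-0 on PAC with propiconazole (PPZ, 2 µM), which inhibits brassinosteroid synthesis, added. The mock-treated mutant bzr1-1D, on both inhibitors, made up the remaining group, so no group was free of PAC. In bzr1-1D a dominant mutation stabilizes BZR1, a transcription factor that brassinosteroids activate. Whether a pair of libraries stems from separate cultures is not stated in the labels, so p-values measure only how far these libraries spread, and that spread may be technical.

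The tables hold group means of normalized reads (read counts divided by a size factor for the library). Whole reads of each library were recovered from those means, and the deeper and shallower library of each group are named by their total. Recovered reads of genes summed to 8166088 to 17108822 per library, without the genes whose reads could not be resolved. Such genes among the 44 were LHCB1.3 in 3 groups and PSBO1 in bzr1-1D, for which only the authors' mean is given. Markers of seed reserves summed to 16170 and 23650 normalized reads in the wild-type PAC libraries, 3714 and 3230 after GA3 on PAC, 40170 and 35140 with PPZ added, 10430 and 6070 after GA3 there, and 24230 and 27560 in bzr1-1D. All 9 were detected, and 8 were called lower by the authors after GA3 in each wild-type comparison and 4 in bzr1-1D. Of all tested genes the authors called 14.3% lower with GA3 on PAC, 7.37% with PPZ added and 15.0% in bzr1-1D. In limma-voom fits of the recovered reads, 7 of 8 were lower in bzr1-1D and OLEO2 was higher, at a log2 change of 0.43. Within the wild-type PAC pair the sum was higher in the shallower library. Most seed markers thus moved with the comparisons below, and their part in them was not tested. The 5 root hair markers summed to 28.0 to 299.6 and the 3 shoot apex markers to 107 to 187 normalized reads, and up to 2 of the latter were at 0 in a library. The authors called 4 of the root hair markers lower in bzr1-1D and 1 higher with GA3 on PAC. The labelled hypocotyl was checked against these other tissues alone, and cotyledons were covered by no marker list.

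The libraries of the wild-type PAC pair stood apart for these genes. All 43 resolved genes were higher in the deeper library of that pair, by a median of 1.42-fold, with a range of log2 differences from 0.20 for PSAH2 to 0.86 for LHCB1.5. Among 3209 genes with at least 1000 normalized reads on average, 60.1% were higher in that library, with a median log2 difference of 0.06 and an SD of 0.24. The same median over the antenna and photosystem genes was 0.00 after GA3 on PAC, 0.09 with PPZ added, 0.03 after GA3 there, and 0.18 in bzr1-1D. Medians of the comparisons that rest on the wild-type PAC pair are therefore given also without each of its libraries. Ranges of the counts over libraries left out come at the end.

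**Figure D1:**
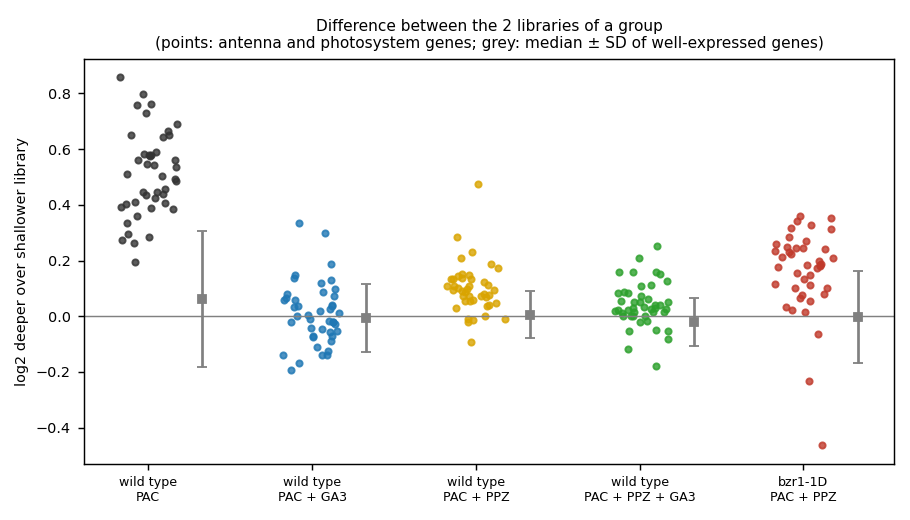
Each point is a gene of the set, at its log2 ratio of normalized reads between the deeper and the shallower library of a group, and the grey squares and bars are the median and SD over 3209 well-expressed genes. The 43 points of the wild-type PAC pair all lie above 0, around a median of 0.51, while the other 4 pairs have medians from 0.00 to 0.18.

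The 42 genes resolved in every library, which leaves out LHCB1.3 and PSBO1, took the smallest share of gene reads in bzr1-1D. They made up 2.15 and 1.59% of gene reads in the wild-type PAC libraries, 1.57 and 1.59% after GA3, 1.88 and 1.78% with PPZ added, 1.51 and 1.46% after GA3 there, and 0.90 and 0.78% in bzr1-1D. Both bzr1-1D libraries lay below the other 8. The shallower wild-type PAC library lay level with the GA3 libraries and the deeper one above all others. In bulk RNA, fewer cells that express these genes and less RNA per cell cannot be told apart.

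Levels were compared between genes per kilobase of coding sequence, from the authors' group means. LHCB1.3 (AT1G29930), a major antenna protein of photosystem II, was highest in every group, at 102000 normalized reads per coding kilobase in wild-type PAC, 81340 after GA3, 89970 with PPZ added, 78800 after GA3 there, and 46920 in bzr1-1D. Next on this scale, averaged over the 5 groups, were PSAG at 22850, PSBO1 at 21680, PSBX at 18020 and LHCB5 at 17410 normalized reads per coding kilobase. The lowest were LHCB7 (AT1G76570) at 95.3 and LHCB4.3 (AT2G40100) at 192, both rare relatives of the antenna proteins.

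**Figure D2:**
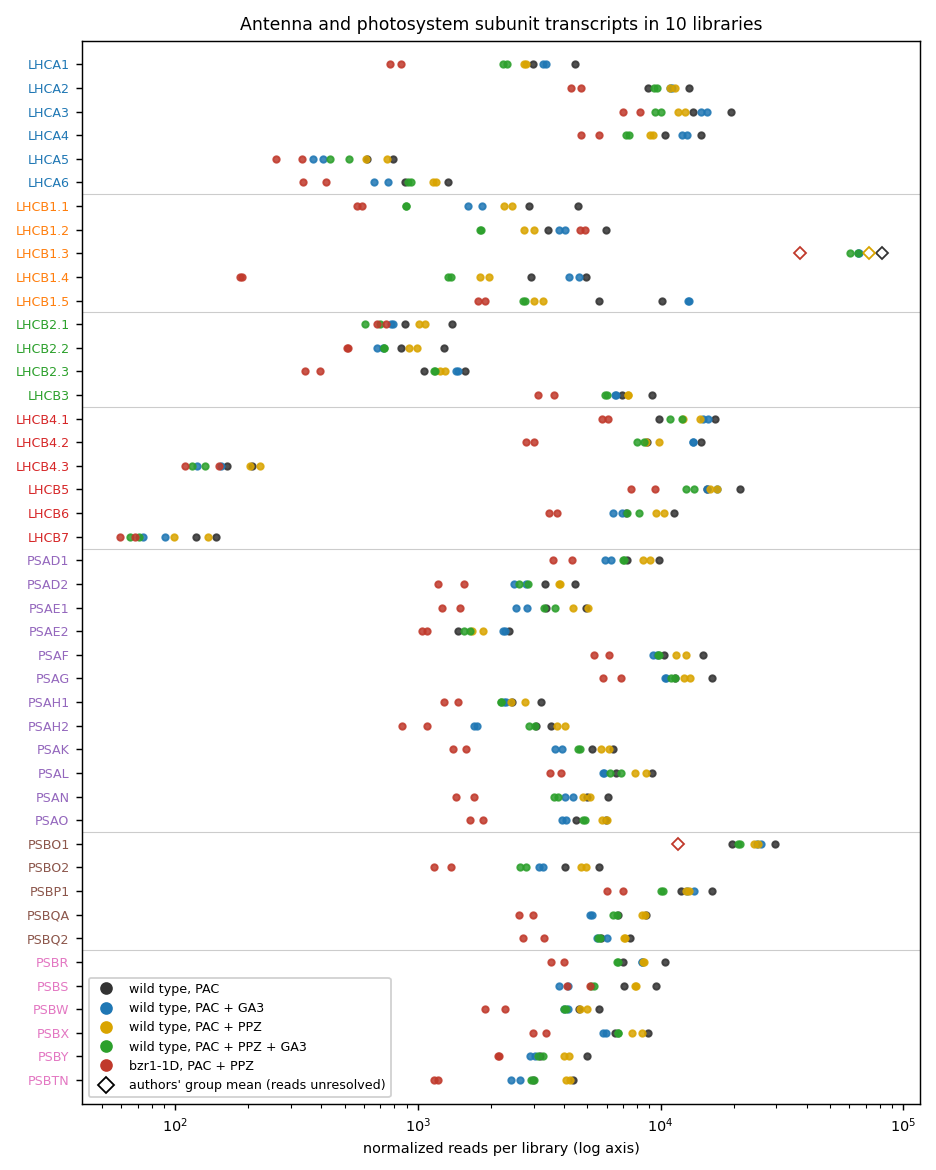
Normalized reads of each gene in each library (log axis), with genes in rows grouped by role, library groups in colour, and an open diamond at the authors' group mean where reads were unresolved. Most genes have their bzr1-1D libraries to the left of the other 8, while LHCB1.2 in bzr1-1D lies to the right of its PAC and PPZ libraries.

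The first question was what adding GA3 does to these transcripts in seedlings that make little gibberellin of their own. With GA3 on PAC most photosystem subunit transcripts were modestly lower, antenna transcripts were split, and LHCB1.5 was higher. The authors' deposited table called 29 of the 44 genes lower at a DESeq adjusted p under 0.05, beside 14.3% of all tested genes called lower. It called 1 higher, LHCB1.5, beside 12.9% of all tested genes. The median deposited fold over the set was 1.31-fold lower, which is -0.39 on the log2 scale beside 0.04 for all genes tested. The median log2 change from limma-voom was -0.36, and it was -0.13 without the deeper and -0.59 without the shallower wild-type PAC library. PSA and PSB genes were called lower in 19 of 23 cases, and antenna genes in 10 of 21.

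A second test, limma-voom on the recovered reads with Benjamini-Hochberg adjustment, called 15 of 43 genes lower (16.6% of all genes tested) and 1 higher (15.9%). The libraries of the 2 groups overlapped for 15 of the 43 genes, while 27 genes were lower in both GA3 libraries, beside 31.4% of all genes, and 1 was higher in both, beside 37.7%. Without the shallower wild-type PAC library limma-voom called 35 lower, and without the deeper one 11 lower and 9 higher. Without the deeper and the shallower GA3 library it called 6 and 5 lower. Without the deeper wild-type PAC library the log2 change was -0.75 for LHCB1.1, -0.83 for PSBS, -0.84 for PSAH2, -0.68 for LHCA5 and 1.22 for LHCB1.5, and without the shallower one -1.41, -1.27, -1.03, -1.04 and 0.37 in the same order. Each of these 5 genes kept its sign in both cases. Their changes without a GA3 library are not given here, so these values do not show how far they rest on the GA3 pair. LHCB2.1, LHCB2.2, LHCB7 and PSBTN were no longer called without the deeper library, at -0.18, -0.28, -0.56 and -0.25.

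Whether such changes appear under a block of brassinosteroid synthesis as well was asked next. The antenna and photosystem transcripts were here lower with GA3 by a similar small amount, and none was called higher. The authors' deposited table called 26 of 44 lower, beside 7.37% of all tested genes, and 0 higher, beside 5.97%, and 0 were higher at an unadjusted DESeq p under 0.05. The median deposited fold was 1.27-fold lower, or -0.34 on the log2 scale beside 0.02 for all genes. By limma-voom 41 of 43 were lower (18.3% of all genes) and 0 higher, and all 43 resolved genes were lower in both GA3 libraries than in both mock libraries, beside 32.8% of all genes. This pair of groups had the smaller standard errors, with a median SE of 0.05 on the log2 scale against 0.17 on PAC alone.

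The GA3 comparisons share no library. The authors' deposited tables called 21 genes lower in both, which is 72.4% of those lower on PAC and 80.8% of those lower on PAC and PPZ. Over all genes tested in both tables these shares were 45.2 and 85.8%. A further 8 were called lower on PAC alone and 5 on PAC and PPZ alone. The 10 genes called lower in neither were LHCA1, LHCA2, LHCB1.5, LHCB2.3, LHCB4.1, LHCB4.2, LHCB5, PSAE2, PSBO1 and PSBR, and a gene called in only 1 of the comparisons is not shown to differ between them.

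The bzr1-1D comparison asked what active BZR1 does to these transcripts when both hormone syntheses are blocked. In bzr1-1D nearly every antenna and photosystem transcript was lower than in wild type on the same media, with LHCB1.2 as the exception. The authors' deposited table called 43 of 44 lower, beside 15.0% of all tested genes, and 1 higher, beside 14.5%. The median deposited fold was 2.27-fold lower, or -1.18 on the log2 scale beside 0.02 for all genes. By limma-voom 41 of 42 were lower (22.9% of all genes) and 1 higher (24.2%). All 42 resolved genes had separate libraries, 41 lower and 1 higher, beside 36.3 and 38.9% of all genes. This comparison and that of GA3 on PAC and PPZ share the mock-treated wild-type libraries.

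**Figure D3:**
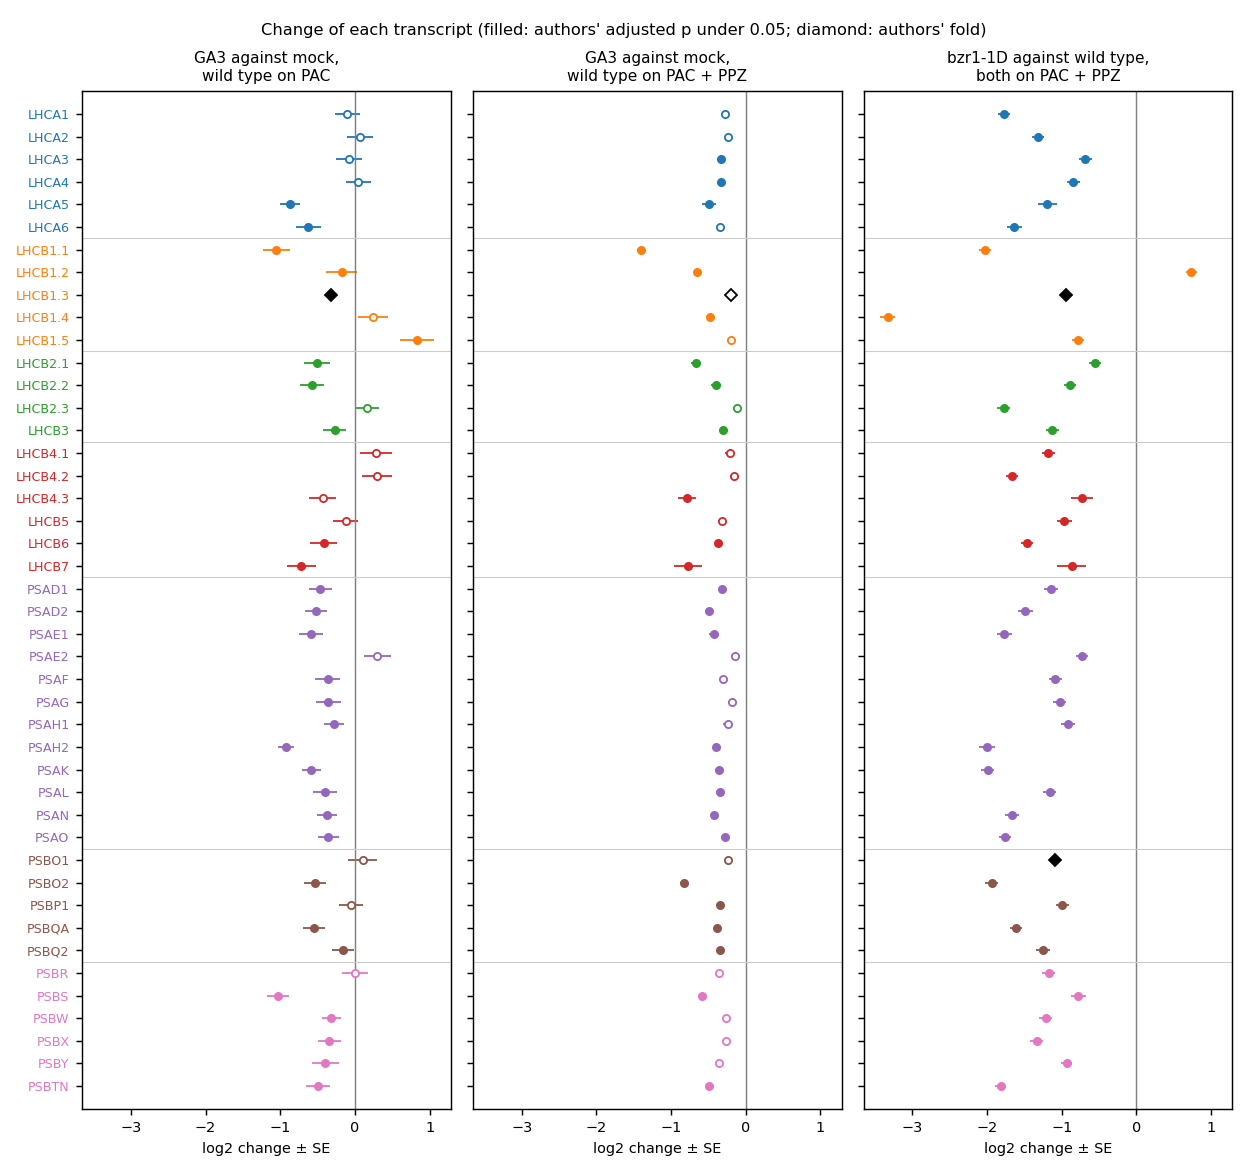
Log2 change of each gene with its SE from limma-voom (circles), or the authors' deposited log2 fold where reads were unresolved (diamonds), in 3 comparisons on the same axis, with symbols filled where the authors' DESeq adjusted p is under 0.05. GA3 changes lie mostly between 0 and -1, bzr1-1D changes mostly between -0.5 and -2, and the LHCB1 genes reach from -3.33 to 0.74 in bzr1-1D.

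Across the 42 genes fitted in both, the log2 changes with GA3 on PAC and in bzr1-1D, which share no library, had a Pearson r of 0.09 and a Spearman rho of 0.20. This describes genes of the same libraries and depth, which are not independent replicates.

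LHCA1 to LHCA4 are the main antenna proteins of photosystem I, and LHCA5 and LHCA6 are rare members that link photosystem I to the NDH complex. With GA3 on PAC only the rare pair was called lower by the authors, beside 14.3% of all tested genes. LHCA5 (AT1G45474) had 789 and 615 normalized reads in the wild-type PAC libraries and 368 and 405 after GA3. The groups did not overlap, and the log2 change was -0.87 ± 0.14 (SE, 2 libraries per group; DESeq adjusted p = 7.14e-08). LHCA6 changed by -0.63 ± 0.17 (DESeq adjusted p = 8.78e-05). LHCA2 (AT3G61470) had 13080 and 8867 reads before and 11200 and 10920 after GA3, with the GA3 libraries inside the span of the PAC pair.

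In bzr1-1D all 6 LHCA genes were called lower, beside 15.0% of all tested genes, but by different amounts. LHCA1 (AT3G54890) had 2800 and 2741 normalized reads in wild type on PAC and PPZ, against 853 and 766 in bzr1-1D. That is a log2 change of -1.78 ± 0.08 (DESeq adjusted p = 1.75e-29), the largest of the role. LHCA3 (AT1G61520) had 12590 and 11850 reads in wild type and 8252 and 7013 in bzr1-1D. Its change, -0.68 ± 0.09, was the smallest of the 6 (DESeq adjusted p = 2.56e-07). With GA3 on both inhibitors the LHCA changes ran from -0.49 ± 0.10 for LHCA5 to -0.23 ± 0.04 for LHCA2. The authors called 3 of the 6 lower there, beside 7.37% of all tested genes.

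The 5 LHCB1 genes encode nearly the same protein of the trimeric major antenna of photosystem II, and they moved in different directions. LHCB1.1, LHCB1.2 and LHCB1.3 lie side by side on chromosome 1, and their coding sequences are 95.6 to 96.4% identical, with 47 of 804 positions differing among the 3. LHCB1.4 and LHCB1.5 lie together on chromosome 2 and are 91.4% identical. The first 90 coding bases of the chromosome 1 genes, from RefSeq's TAIR10.1, are shown because reads must be told apart by such differences, with the 9 positions that differ in capitals.
LHCB1.1: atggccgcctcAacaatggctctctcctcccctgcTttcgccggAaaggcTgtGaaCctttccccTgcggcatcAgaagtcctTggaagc
LHCB1.2: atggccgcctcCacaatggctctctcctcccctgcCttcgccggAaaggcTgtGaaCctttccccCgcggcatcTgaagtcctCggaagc
LHCB1.3: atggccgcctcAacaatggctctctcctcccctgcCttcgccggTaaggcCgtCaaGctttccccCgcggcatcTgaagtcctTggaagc
Reads that aligned to several places were set apart by the authors (8.61 to 10.7% of all reads per group). Of all 50-base windows of the transcripts, 79.5 to 89.4% occurred nowhere else among RefSeq transcripts for the 5 LHCB1 genes. Genes that overlap them were left aside in this search. Of the 44 genes, 17 overlap another RefSeq gene, LHCB1.3 among them. LHCB1.5 also overlaps an antisense locus, AT2G08665, and the labels do not say that strand was used in counting. Values of single LHCB1 genes are uncertain to that extent.

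LHCB1.3 supplied most LHCB1 reads in every group. Its share of the summed LHCB1 means was 80.2% in wild-type PAC, 73.8% after GA3, 87.5% with PPZ added, 90.2% after GA3 there, and 83.6% in bzr1-1D. In the authors' deposited table it was 1.25-fold lower with GA3 on PAC (DESeq adjusted p = 0.0246) and 1.92-fold lower in bzr1-1D (DESeq adjusted p = 1.02e-07). With GA3 on PAC and PPZ the authors' deposited table had it 1.14-fold lower and not called (DESeq adjusted p = 0.606). The contrasting changes were those of the other LHCB1 genes.

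LHCB1.2 (AT1G29910) was the only gene of the set called higher in bzr1-1D. It had 2999 and 2726 normalized reads in wild type on PAC and PPZ, against 4873 and 4655 in bzr1-1D, a log2 change of 0.74 ± 0.08 (DESeq adjusted p = 7.48e-07). Both bzr1-1D libraries lay between the wild-type PAC values of 5977 and 3436. Its share of LHCB1 reads was 3.49% in wild type on PAC and PPZ, against 10.6% in bzr1-1D. After GA3 on both inhibitors it had 1828 and 1810 reads and fell by 0.65 ± 0.05 on the log2 scale (DESeq adjusted p = 6.2e-05).

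LHCB1.4 (AT2G34430) changed most in bzr1-1D of all 42 fitted genes. It had 1972 and 1799 normalized reads in wild type on PAC and PPZ, against 189 and 185 in bzr1-1D, a log2 change of -3.33 ± 0.10 (DESeq adjusted p = 2.39e-111). GA3 on PAC left it at 4626 and 4206 reads, within the span of the PAC pair at 4949 and 2921.

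LHCB1.5 (AT2G34420) had 10120 and 5584 normalized reads in the wild-type PAC libraries and 13150 and 12930 after GA3. Both GA3 libraries lay above both mock libraries, and the log2 change was 0.83 ± 0.23 (DESeq adjusted p = 8.66e-06). With PPZ added it had 3292 and 3004 reads, and 2756 and 2721 after GA3, a log2 change of -0.20 ± 0.05 that the authors' test did not call (DESeq adjusted p = 0.35) and limma-voom did (adjusted p = 0.00808). In bzr1-1D it had 1889 and 1761 reads, a log2 change of -0.79 ± 0.08 (DESeq adjusted p = 9.69e-10).

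LHCB1.1 (AT1G29920) fell in all 3 comparisons and had the largest fall with GA3 on either medium among the fitted genes of the set. It had 4565 and 2880 normalized reads in the wild-type PAC libraries and 1830 and 1605 after GA3, a log2 change of -1.06 ± 0.18 (DESeq adjusted p = 7.95e-12). PPZ-grown wild type had 2447 and 2269 reads, 892 and 891 after GA3, and 563 and 589 in bzr1-1D. The groups did not overlap, and the log2 changes were -1.40 ± 0.06 with GA3 and -2.03 ± 0.08 in bzr1-1D (DESeq adjusted p = 1.38e-15 and 1.12e-32).

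The neighbouring copies therefore changed their balance. From the authors' means, the ratio of LHCB1.2 to LHCB1.1 normalized reads was 1.26 in wild-type PAC, 2.29 after GA3, 1.21 with PPZ added, 2.04 after GA3 there, and 8.27 in bzr1-1D. In single libraries it was 2.03 to 2.37 in the GA3 groups and 7.90 and 8.65 in bzr1-1D. Both libraries of each GA3 group lay above those of their mock group, and bzr1-1D lay above all. The ratio of LHCB1.5 to LHCB1.4 was 1.67 in each mock-treated wild-type library on PAC and PPZ, against 10.0 and 9.53 in bzr1-1D.

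**Figure D4:**
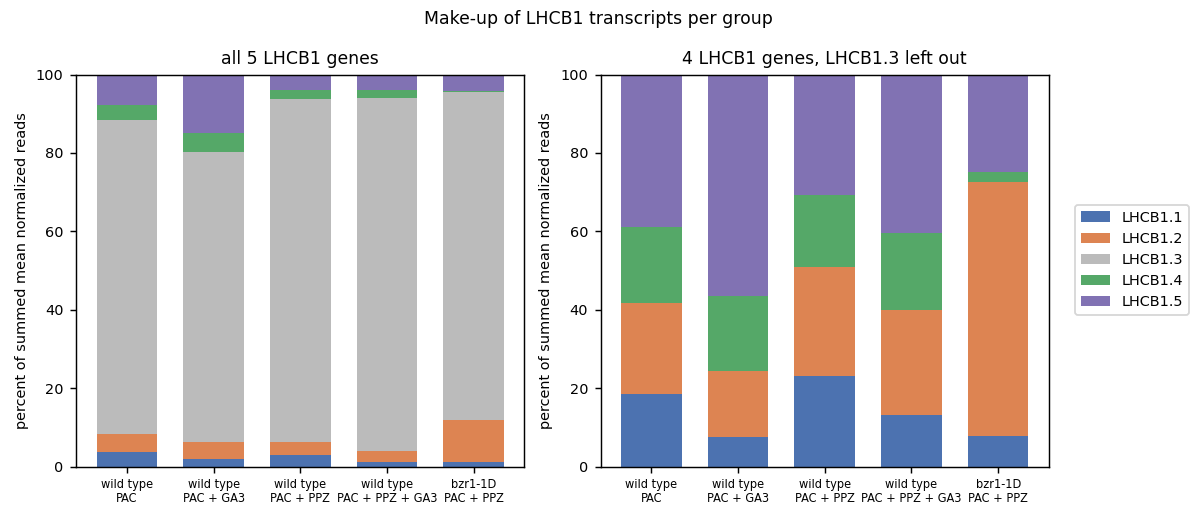
Stacked bars give each LHCB1 gene's percent of the summed mean normalized reads of the authors per group, for all 5 genes and for 4 genes without LHCB1.3. LHCB1.3 makes up 73.8 to 90.2% on the left, and on the right LHCB1.2 makes up 64.8% in bzr1-1D against 27.9% in wild type on PAC and PPZ.

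LHCB2 and LHCB3 complete the trimeric antenna. LHCB2.1 (AT2G05100) had 1385 and 886 normalized reads in the wild-type PAC libraries and 792 and 774 after GA3, and its log2 change was -0.51 ± 0.17 (DESeq adjusted p = 1.9e-06). It had the smallest change among the fitted genes of the set that were lower in bzr1-1D. Its reads were 1067 and 1009 in wild type and 738 and 681 in the mutant. That is a log2 change of -0.55 ± 0.08 (DESeq adjusted p = 1.83e-05). LHCB2.3 (AT3G27690) went the other way round, with -1.78 ± 0.09 in bzr1-1D (DESeq adjusted p = 1.03e-33). After GA3 it was not called on either medium, at 0.17 ± 0.16 on PAC and -0.11 ± 0.06 on PAC and PPZ (DESeq adjusted p = 0.935 and 0.81). LHCB2.1 and LHCB2.2 share sequence, with 79.8 and 71.8% of windows unique, so their separate values carry the same uncertainty as LHCB1.

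LHCB4 to LHCB6 are the minor antenna proteins that join the trimers to the core of photosystem II. LHCB4.1 (AT5G01530) and LHCB4.2 (AT3G08940) were not called with GA3 on either medium by the authors. LHCB4.2 had 14620 and 8823 normalized reads in the wild-type PAC libraries and 13570 and 13670 after GA3, inside the span of the PAC pair. In bzr1-1D it had 3019 and 2796 reads against 9808 and 8688 in wild type, a log2 change of -1.67 ± 0.08, the largest of the role (DESeq adjusted p = 2.73e-29). The ratio of LHCB4.2 to LHCB4.1 was 0.68 and 0.70 in wild type on PAC and PPZ, against 0.50 and 0.49 in bzr1-1D.

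Of these 6 genes, LHCB6 and LHCB7 were called lower by the authors with GA3 on both media, and LHCB4.3 with GA3 on PAC and PPZ alone. Of all tested genes the authors called 14.3% lower with GA3 on PAC and 7.37% with GA3 on PAC and PPZ. By limma-voom 1 of the 6, LHCB7, was lower with GA3 on PAC, which is near the 16.6% of all genes. All 6 were lower with GA3 on PAC and PPZ, beside 18.3% of all genes. LHCB6 (AT1G15820) had 11320 and 7212 normalized reads in the wild-type PAC libraries and 6910 and 6359 after GA3 (log2 change -0.42 ± 0.19, DESeq adjusted p = 4.11e-06). Its change was -0.12 without the deeper wild-type PAC library and -0.77 without the shallower one. LHCB4.3 changed by -0.43 ± 0.18 with GA3 on PAC and was not called (DESeq adjusted p = 0.0936). It had 223 and 204 normalized reads on PAC and PPZ and 117 and 133 after GA3, a log2 change of -0.78 ± 0.12 (DESeq adjusted p = 8.26e-04). LHCB7 had 147 and 122 reads in the wild-type PAC libraries and 90.6 and 73.6 after GA3, a log2 change of -0.72 ± 0.19 (DESeq adjusted p = 0.0177). Neither pair of groups overlapped. In bzr1-1D the changes of LHCB4.3 and LHCB7 were -0.73 ± 0.15 and -0.87 ± 0.20, the smallest among the 6 genes LHCB4.1 to LHCB7.

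The 12 PSA genes encode subunits of photosystem I: PSAD and PSAE dock ferredoxin at the stromal side, PSAF and PSAN take part in binding plastocyanin, and PSAH, PSAL and PSAO lie where the mobile antenna binds. The authors called 11 of 12 lower with GA3 on PAC, 8 with GA3 on PAC and PPZ, and 12 in bzr1-1D. Of all tested genes they called 14.3, 7.37 and 15.0% lower in the same order. By limma-voom 5, 11 and 12 of the 12 were lower. PSAE2 (AT2G20260) was the gene that the authors did not call with GA3 on PAC. It had 2365 and 1467 normalized reads before and 2280 and 2248 after GA3 (log2 change 0.30 ± 0.18, DESeq adjusted p = 0.598). Its copy PSAE1 (AT4G28750) had 4917 and 3364 reads before and 2806 and 2532 after GA3, a log2 change of -0.59 ± 0.16 (DESeq adjusted p = 7.52e-06).

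PSAE2 was the copy with the smaller change in both GA3 comparisons and in bzr1-1D, and the ratio of PSAE2 to PSAE1 moved with it. The wild-type PAC libraries had ratios of 0.48 and 0.44, and the GA3 libraries 0.81 and 0.89. With both inhibitors it was 0.37 and 0.39, against 0.73 and 0.82 in bzr1-1D. In bzr1-1D PSAE1 changed by -1.77 ± 0.10 and PSAE2 by -0.73 ± 0.08 (DESeq adjusted p = 5.16e-34 and 2.61e-06), the latter the smallest change of the PSA genes.

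PSAH2 (AT1G52230) had the largest change of the PSA genes with GA3 on PAC and in bzr1-1D. It had 3528 and 3080 normalized reads in the wild-type PAC libraries and 1701 and 1752 after GA3, a log2 change of -0.92 ± 0.11 (DESeq adjusted p = 5.58e-20). With PPZ added it had 4039 and 3740 reads, 3046 and 2871 after GA3, and 1090 and 860 in bzr1-1D. No groups overlapped, and the log2 changes were -0.39 ± 0.05 with GA3 and -2.00 ± 0.10 in bzr1-1D (DESeq adjusted p = 0.00101 and 2.98e-84). Its copy PSAH1 (AT3G16140) changed less, by -0.28 ± 0.13, -0.24 ± 0.06 and -0.92 ± 0.09 in the same order. PSAK (AT1G30380), which binds the photosystem I antenna, had 6151 and 5706 reads on PAC and PPZ, against 1585 and 1393 in bzr1-1D, a log2 change of -1.99 ± 0.08 (DESeq adjusted p = 2.85e-88).

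The ratio of PSAH2 to PSAH1 showed the difference within libraries. From the authors' means it was 1.17 in wild-type PAC, 0.76 after GA3, 1.35 after GA3 with PPZ, and 0.71 in bzr1-1D, and the mock-treated libraries with PPZ had 1.46 and 1.54. PSAH2 was the more abundant copy in the 6 libraries of wild type without GA3 or with PPZ, and the less abundant in the other 4. Both genes are unique in all 50-base windows, but each overlaps another RefSeq gene that was left aside in that search.

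A difference of the GA3 effect between media was called for PSAH2 alone among the 43 genes fitted. The difference of its log2 changes, with PPZ minus without, was 0.53 ± 0.12 (limma-voom interaction, adjusted p = 0.0389), beside 1.61% of all genes called higher, and 0 genes were called lower, beside 1.63%. At an unadjusted p under 0.05, limma-voom had 2 genes higher and 2 lower. The PSAH2 call was lost in 7 of 11 alternatives, 6 of them leaving out a library, with a difference of 0.44 to 0.64. Without the shallower wild-type PAC library 17 genes were called higher and 2 lower, and without the deeper one 1 higher and 19 lower, so the count rests on that pair. For LHCB1.5 the difference was -1.01 ± 0.27 and was not called (limma-voom adjusted p = 0.0728), but it was called without the deeper wild-type PAC library, at -1.42, and without the shallower one, at -0.57.

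The PSB genes of the oxygen-evolving complex (PSBO, PSBP and PSBQ) encode proteins that shield the manganese cluster at which water is split. The major copy PSBO1 (AT5G66570) had 29610 and 19690 normalized reads in the wild-type PAC libraries and 25020 and 25840 after GA3, inside the span of the PAC pair (DESeq adjusted p = 0.895). In bzr1-1D the authors' deposited table had it 2.13-fold lower (DESeq adjusted p = 5.64e-17). The minor copy PSBO2 (AT3G50820) had 5557 and 4052 reads before and 3162 and 3277 after GA3, a log2 change of -0.54 ± 0.15 (DESeq adjusted p = 2.19e-06). On PAC and PPZ it had 4946 and 4707 reads, 2782 and 2647 after GA3, and 1161 and 1363 in bzr1-1D. Those groups did not overlap, with log2 changes of -0.83 ± 0.05 and -1.94 ± 0.09 (DESeq adjusted p = 1.66e-09 and 4.12e-51). The ratio of PSBO2 to PSBO1 means was 0.20 in wild-type PAC, 0.19 on PAC and PPZ, 0.13 with GA3 on either medium, and 0.11 in bzr1-1D.

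PSBQA (AT4G21280) and PSBQ2 (AT4G05180) encode the PsbQ protein. PSBQA had 8727 and 6678 normalized reads in the wild-type PAC libraries and 5110 and 5212 after GA3, a log2 change of -0.55 ± 0.14 (DESeq adjusted p = 7.14e-10). PSBQ2 had 7465 and 5684 reads before and 5452 and 6006 after GA3, and the libraries overlapped (log2 change -0.17 ± 0.15, DESeq adjusted p = 0.0186). In bzr1-1D the changes were -1.61 ± 0.08 for PSBQA and -1.25 ± 0.09 for PSBQ2. PSBP1 (AT1G06680), at -0.99 ± 0.09, had the smallest fitted change of the complex in bzr1-1D (DESeq adjusted p = 3.6e-21).

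The other PSB genes include PSBS (AT1G44575), which senses lumen pH in the dissipation of excess light energy. PSBS had the largest change of the PSB genes with GA3 on PAC and the smallest in bzr1-1D. It had 9578 and 7081 normalized reads in the wild-type PAC libraries and 3808 and 4147 after GA3, a log2 change of -1.03 ± 0.15 (DESeq adjusted p = 1.09e-12). On PAC and PPZ it had 7835 and 7940 reads, 5339 and 5157 after GA3, and 5132 and 4127 in bzr1-1D. The GA3 and bzr1-1D libraries lay below both wild-type mock libraries, at log2 changes of -0.59 ± 0.04 and -0.78 ± 0.10 (DESeq adjusted p = 0.00119 and 1.43e-06).

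PSBTN (AT3G21055), a small subunit of photosystem II, changed most of this group in bzr1-1D. It had 4246 and 4091 normalized reads in wild type on PAC and PPZ, against 1207 and 1162 in bzr1-1D, a log2 change of -1.81 ± 0.07 (DESeq adjusted p = 2.52e-35). PSBR (AT1G79040), which helps to attach the oxygen-evolving proteins, had 10390 and 6980 reads in the wild-type PAC libraries and 8394 in each GA3 library, a value inside the span of the PAC pair (DESeq adjusted p = 0.647). In bzr1-1D it changed by -1.18 ± 0.08 (DESeq adjusted p = 1.38e-11). PSBW, PSBX and PSBY changed by -0.32 to -0.40 with GA3 on PAC and by -0.93 to -1.33 in bzr1-1D. The authors called all 3 lower in both, while limma-voom did not call them with GA3 on PAC. Without the deeper wild-type PAC library those changes were -0.19, -0.14 and -0.10. Without the shallower one they were -0.46, -0.59 and -0.75.

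PPZ itself was compared with no PPZ on recovered reads, since no deposited table makes that comparison. In mock-treated wild type on PAC, the genes called were LHCB1 genes. By limma-voom 3 of 43 were lower, beside 12.1% of all genes, and 0 higher, beside 11.6%, with 0 higher at an unadjusted p under 0.05. LHCB1.5 changed by -1.22 ± 0.22, LHCB1.4 by -0.98 ± 0.20 and LHCB1.1 by -0.59 ± 0.18 (limma-voom adjusted p = 0.00423, 0.0074 and 0.0446). LHCB1.2 changed by -0.63 ± 0.21 and was not called (limma-voom adjusted p = 0.061). The 23 PSA and PSB genes had changes from -0.13 to 0.25, of which none was called. LHCA1, LHCA3 and LHCA4, at -0.36, -0.39 and -0.41, were not called either, though both of their PPZ libraries lay below both others. A single fit over all 10 libraries called 6 genes lower. Scaling by total reads gave 2 lower and 1 higher, PSAH2. With both libraries of each group the median log2 change over the set was -0.03. It was -0.29 without the shallower wild-type PAC library and 0.23 without the deeper one, so its sign rests on that pair.

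After GA3 on PAC, PPZ went with lower and higher values in the set. By limma-voom 19 of 44 were lower and 13 higher, beside 25.7 and 26.2% of all genes. The higher count is near the share over all genes. Scaling by total reads, which moves the median of all genes from 0.03 to 0.19 on the log2 scale, gave 12 lower and 19 higher, and a single fit over all 10 libraries 10 lower and 4 higher. The LHCB1 genes again held the largest falls, with LHCB1.5 at -2.25 ± 0.06, LHCB1.4 at -1.71 ± 0.07, LHCB1.2 at -1.11 ± 0.06 and LHCB1.1 at -0.95 ± 0.07 (limma-voom adjusted p = 3.01e-10, 2.57e-09, 3.84e-08 and 7.49e-07). LHCB1.3 was at -0.06 ± 0.06, with overlapping libraries. Of the LHCA genes, LHCA1 to LHCA4 were lower, down to -0.77 ± 0.06 for LHCA4, and LHCA5 and LHCA6 were higher, up to 0.39 ± 0.08 for LHCA6. PSAH2 rose most, by 0.78 ± 0.06 (limma-voom adjusted p = 8.79e-07). Markers of seed reserves and root hairs were higher with PPZ. The 1 shoot apex marker fitted, STM, was at -0.53 in mock and -0.22 after GA3 and was not called. By limma-voom all 9 seed reserve markers were higher in mock and 7 of 8 fitted after GA3. All 4 fitted root hair markers were higher in both. Of all genes, 11.6% were higher in mock and 26.2% after GA3. The part of these tissues in the PPZ changes was not tested.

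**Figure D5:**
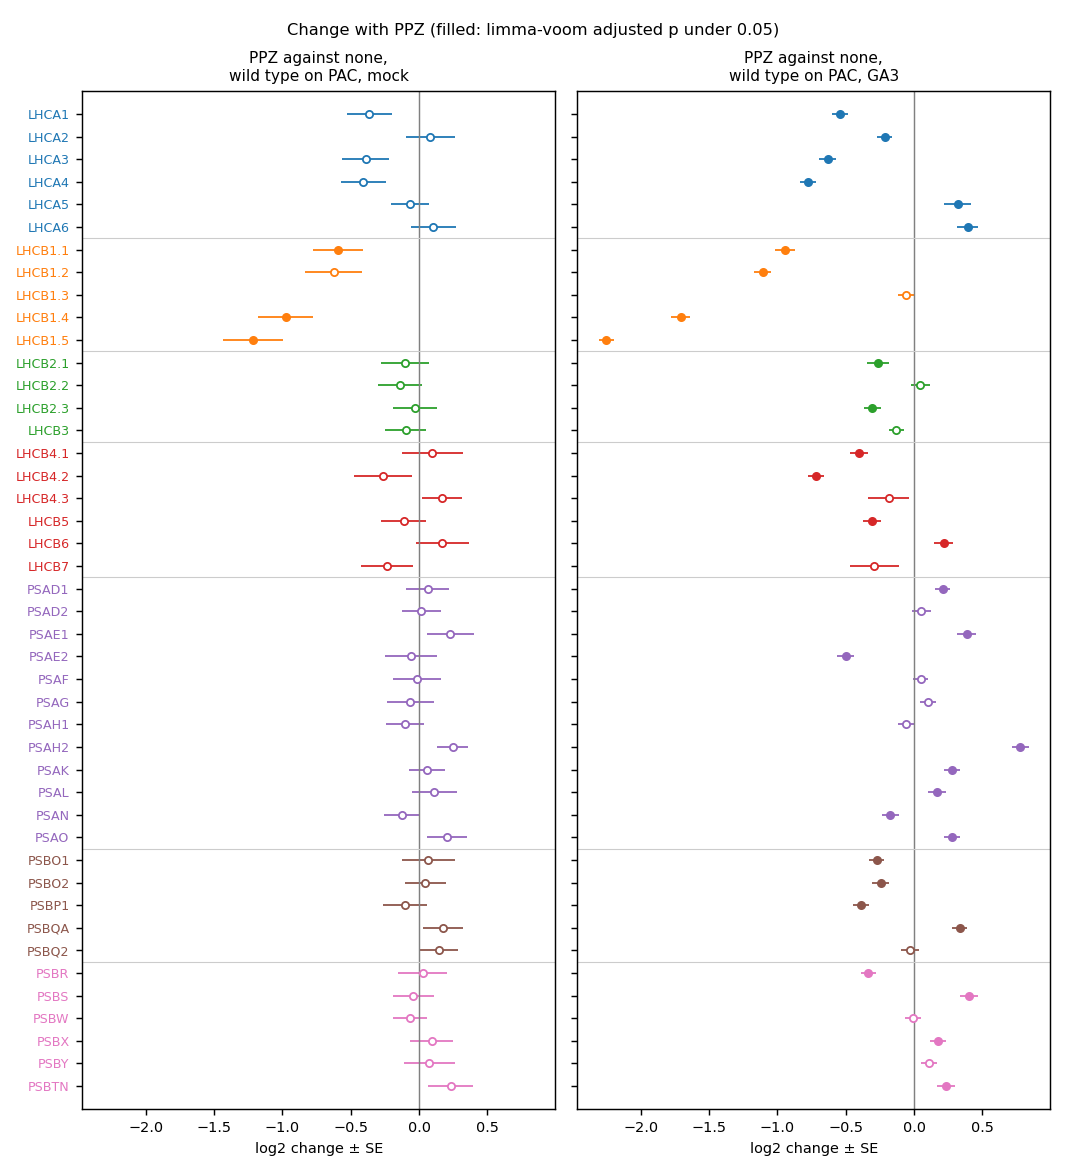
Log2 change with PPZ and its SE from limma-voom in wild type on PAC with mock or GA3, genes in rows by role, with circles filled at an adjusted p under 0.05. LHCB1.4 and LHCB1.5 lie at -0.98 and -1.22 with mock and at -1.71 and -2.25 with GA3, while PSAH2 is at 0.25 and 0.78.

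Set against wild type without PPZ, bzr1-1D on PAC and PPZ was also lower for most of the set. By limma-voom 40 of 42 genes were lower, beside 15.7% of all genes, and 0 higher, beside 15.6%, with 0 higher at an unadjusted p under 0.05. Total-read scaling moves the median of all genes from -0.00 to 0.13 here and left 40 lower. LHCB1.4 changed by -4.31 ± 0.22. The median over the set was -1.24, and it was -1.02 without the deeper and -1.47 without the shallower wild-type PAC library. The genes not called were LHCB1.2 at 0.10 ± 0.22 and LHCB4.3 at -0.55 ± 0.19 (limma-voom adjusted p = 0.766 and 0.0529).

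The regions before the start of both PSAH and both PSBQ genes, pairs chosen after their values were seen, were read from RefSeq's TAIR10.1 by locus. The deposited tables hold no coordinates and name no build, so these positions are RefSeq's own. The 250 bases before the annotated gene start of PSAH1, PSAH2, PSBQA and PSBQ2 are given on the coding strand, with matches to searched motifs in capitals. Motifs were the G-box CACGTG, the PBE-box CACATG, the BRRE as CGTGTG or CGTGCG, the I-box GATAAG and CCAATC, each on both strands. A G-box followed by TG would count for both the G-box and the BRRE.
PSAH1 (chr3:5469595-5469844, minus strand): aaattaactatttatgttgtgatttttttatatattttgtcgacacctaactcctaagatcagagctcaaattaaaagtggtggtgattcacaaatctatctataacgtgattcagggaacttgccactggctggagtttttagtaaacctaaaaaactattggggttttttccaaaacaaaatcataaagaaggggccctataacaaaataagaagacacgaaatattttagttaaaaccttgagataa
PSAH2 (chr1:19454548-19454797, plus strand): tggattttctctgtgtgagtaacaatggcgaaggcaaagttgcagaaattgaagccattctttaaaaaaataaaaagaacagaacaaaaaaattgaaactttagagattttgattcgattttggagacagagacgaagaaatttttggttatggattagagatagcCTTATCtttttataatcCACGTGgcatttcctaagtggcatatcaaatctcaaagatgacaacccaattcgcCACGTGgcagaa
PSBQA (chr4:11334102-11334351, plus strand): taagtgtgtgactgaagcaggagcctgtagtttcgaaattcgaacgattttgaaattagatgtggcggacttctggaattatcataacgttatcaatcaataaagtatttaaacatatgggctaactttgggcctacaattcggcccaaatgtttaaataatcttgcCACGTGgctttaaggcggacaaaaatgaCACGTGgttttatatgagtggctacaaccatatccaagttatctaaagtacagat
PSBQ2 (chr4:2673244-2673493, minus strand): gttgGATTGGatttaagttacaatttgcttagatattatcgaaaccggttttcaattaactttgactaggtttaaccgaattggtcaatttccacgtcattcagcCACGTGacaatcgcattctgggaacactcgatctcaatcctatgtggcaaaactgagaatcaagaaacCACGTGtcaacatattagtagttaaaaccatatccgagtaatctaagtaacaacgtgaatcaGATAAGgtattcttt
PSAH2, PSBQA and PSBQ2 each hold 2 G-boxes in this window and PSAH1 holds none of the searched motifs. The I-box is found once in PSAH2 and once in PSBQ2.

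Over the set, 10 of 44 windows (22.7%) hold a G-box, against 6.5% of 27443 windows of all genes with an annotated start. The CCAATC motif is in 25.0% of the set and 10.2% of all windows, and the I-box in 20.5 and 12.3%. The BRRE is in 6.8 and 6.7% and the PBE-box in 11.4 and 11.1%, close to the share of all genes. In bzr1-1D the 10 genes with a G-box had log2 changes from -2.00 to -0.73 (median -1.36), and the 32 fitted genes without had changes from -3.33 to 0.74 (median -1.17). These ranges overlap, and a match in this window is a description of letters, not a site of binding.

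Other genes of the pathway were described from lists chosen with earlier results of these data known. Of all tested genes the authors called 14.3% lower with GA3 on PAC, 7.37% with GA3 on PAC and PPZ, and 15.0% in bzr1-1D. Of 11 nuclear genes for electron carriers and the plastid ATP synthase, the authors called 8 lower with GA3 on PAC, 7 with GA3 on PAC and PPZ, and 11 in bzr1-1D, with medians of the deposited folds 1.39, 1.25 and 2.46-fold lower. ATPD, the delta subunit of the ATP synthase, changed by -1.63 ± 0.09 in bzr1-1D and FD1, a minor leaf ferredoxin, by -0.51 ± 0.08, the ends of the list (limma-voom adjusted p = 8.98e-08 and 3.62e-04). Of 11 factors that insert antenna proteins or assemble photosystems, the authors called 9, 6 and 11 lower in the same order. PSB28, an assembly factor of photosystem II, had the largest changes of that list, at -1.46 ± 0.15, -0.88 ± 0.06 and -1.86 ± 0.09.

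The 6 LHC-like proteins are relatives of the antenna proteins that are known to act in photoprotection and pigment handling. The authors called 6, 5 and 5 of them lower in the same order. ELIP1 among them had the largest fall of these pathway lists in each comparison. The median of the 6 did not fall most in bzr1-1D, at -1.13 against -1.31 for the electron carriers and ATP synthase. ELIP1, an early light-induced protein, changed by -3.22 ± 0.20 with GA3 on PAC, -3.52 ± 0.09 with GA3 on PAC and PPZ, and -3.89 ± 0.11 in bzr1-1D (limma-voom adjusted p = 7.74e-06, 1.11e-11 and 6.79e-10). LIL3.2, which had unresolved reads in bzr1-1D, was not called there, and the authors' deposited table had it at 0.90 times the wild-type mean. Of the 6 plastid sigma factors, which direct the plastid RNA polymerase, the authors called 4, 3 and 6 lower, SIG1 changing most in bzr1-1D (-1.45 ± 0.09). Of the 3 enzymes that phosphorylate or dephosphorylate antenna proteins, they called 1, 0 and 3 lower, with the kinase STN7 at -1.12 ± 0.11 in bzr1-1D.

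Of 5 transcription factors for greening (GLK1, GLK2, HY5, GNC and CGA1) the authors called 3 lower with GA3 on PAC, 2 lower and 1 higher with GA3 on PAC and PPZ, and 5 lower in bzr1-1D. GLK1, a direct activator of antenna genes, was the one called higher, at 0.41 ± 0.09 (limma-voom adjusted p = 0.0022), and in bzr1-1D it changed by -0.64 ± 0.10. CGA1, a GATA factor, had the largest falls, at -1.56 ± 0.25, -1.18 ± 0.26 and -1.75 ± 0.29. The plastid-encoded reaction centre genes psaA, psaB, psbA, psbB, psbC and psbD were called in 0 of the 3 comparisons by the authors' DESeq test, also at an unadjusted p under 0.05, while limma-voom called 0, 0 and 3 of the 6 lower. Their median log2 changes were -0.01, -0.31 and -0.93, with median SEs of 0.20, 0.36 and 0.40. In bzr1-1D all 6 lay below 0, so the missing DESeq calls do not show them unchanged.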

How the data were processed

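The files are 3 tables of the authors' DESeq comparisons. Per the file headers they give, for each gene, group means of normalized reads (signal: reads divided by size factors), a fold change (ratio) and a p-value with its adjusted value, all deposited by the authors. TopHat and DESeq are named in the submitters' processing notes; their versions and the genome build are not given in the sources used. Rows that name no gene (5) were left out; reads with no unique place were 8.61 to 10.7% of a group's total.

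Each group mean pools 2 libraries. Whole reads per library were recovered from the digits of these means and scaled by median-of-ratios size factors over all 10 libraries. Genes were filtered at a mean of 10 normalized reads over the libraries compared. They were fitted with limma-voom (limma 3.58.1, R 4.3.3) with Benjamini-Hochberg adjustment over all genes. Calls in the deposited comparisons are the authors' DESeq adjusted p under 0.05, and log2 changes ± SE come from limma-voom with 2 libraries per group. Printed levels per library use the same size factors. Scripts were tested on simulated data. Members and lists were chosen with earlier results of these data known. Full values are given for the highest and lowest genes per coding kilobase, the largest and smallest change of each role, and genes with a called difference of the GA3 effect; other values shown for paralogs and PPZ were chosen after they were seen.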

Additional observations from a re-analysis of the deposited data

Results flagged for a closer look

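PSAH2, a photosystem I subunit gene, was flagged because its response to GA3 was called different between media in a test of the difference itself. It was the 1 gene called among 43 fitted, beside 1.61% of all genes called higher and 1.63% lower. This count is near the share over all genes. The log2 change with GA3 on PAC and PPZ minus that on PAC was 0.53 (limma-voom interaction, 8 wild-type libraries). Its normalized reads were lower after GA3 on both media, in both libraries of each pair. The call held in 4 of 11 alternatives.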

How the results depend on the processing

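In the authors' DESeq calls, 29 genes were lower with GA3 on PAC, and 9 of them at a fold of at least 1.5, with 15 by limma-voom. With GA3 on PAC and PPZ the 26 lower became 16 at an adjusted p under 0.01, 6 at a fold of at least 1.5 and 41 by limma-voom. In bzr1-1D the 43 lower were 41 to 43 under these settings. A single limma-voom fit over all 10 libraries called 24 lower with GA3 on PAC, 15 with GA3 on PAC and PPZ, 6 with PPZ in mock, and 10 lower and 4 higher with PPZ after GA3; it called 0 differences of the GA3 effect. Scaling by total reads gave 12 lower with PPZ after GA3 and 1 higher with PPZ in mock. The cause of these differences was not tested. The share of all genes called was not taken for these alternatives or for those below, so their counts describe the set alone.

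Leaving out 1 library at a time, which leaves a lone library assumed to vary like the others, limma-voom called 5 to 35 lower and 0 to 9 higher with GA3 on PAC, 35 to 42 lower and 0 higher with GA3 on PAC and PPZ, and 41 lower and 1 higher in bzr1-1D. For PPZ in mock it called 2 to 34 lower and 0 to 25 higher, for PPZ after GA3 15 to 18 lower and 7 to 11 higher (7 without the deeper library of wild type on PAC and PPZ with GA3), for bzr1-1D against wild-type PAC 39 to 41 lower and 0 to 1 higher, and for the difference of the GA3 effect 0 to 19 lower and 0 to 17 higher. The highest counts of the comparisons that use the wild-type PAC pair were reached when one of its libraries was left out, and the 5 lower with GA3 on PAC when the shallower GA3 library was.

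For 20 single-gene log2 changes the sign turned, with a limma-voom call, when a wild-type PAC library was left out. With GA3 on PAC the range over libraries left out was -0.24 to 0.32 for LHCA2 and -0.31 to 0.27 for PSBR. With PPZ in mock it was -0.29 to 0.23 for the median of the set, -0.22 to 0.34 for LHCA2, -0.18 to 0.41 for LHCA6, -0.42 to 0.23 for LHCB2.1, -0.31 to 0.25 for LHCB2.3, -0.32 to 0.44 for LHCB4.1, -0.19 to 0.46 for LHCB6, -0.18 to 0.26 for PSAD1, -0.21 to 0.20 for PSAD2 and -0.42 to 0.27 for PSAE2. It was -0.31 to 0.23 for PSAF, -0.34 to 0.16 for PSAG, -0.15 to 0.33 for PSAL, -0.25 to 0.33 for PSBO1, -0.20 to 0.25 for PSBO2, -0.29 to 0.29 for PSBR, -0.28 to 0.16 for PSBS, -0.15 to 0.30 for PSBX and -0.28 to 0.37 for PSBY. Under total-read scaling the median with PPZ after GA3 was 0.061. PSBW was then at 0.15. No paired analysis was possible because the deposited columns carry no replicate number. Reads that could not be resolved leave LHCB1.3 and PSBO1 without library values in some groups.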
